A study of Mus musculus with 32 samples.

Results

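The cytosolic ribosomal protein genes encode the protein subunits of the ribosome that translates nuclear messages. They were taken here as every gene whose symbol starts with Rps (small subunit) or Rpl (large subunit) and a digit, without the S6 kinases, the copies named as pseudogenes or retrogenes, the "like" copies and Rps19bp1, and the counts of all transcripts of a gene were summed. The rule gave the same 74 genes, 31 Rps and 43 Rpl, for females and for males, of 13704 genes in both tables together. All 74 passed the filter on low counts. Rps3a2 was kept by its name but is annotated as a processed pseudogene and lay near 1 CPM (the gene's counts scaled to 1 common library total), so 73 members are coding genes.

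The study sequenced RNA of microglia, the resident macrophages of the central nervous system, sorted from mouse spinal cord, labelled day 14, and grouped by 2 factors. Repopulated cells came from mice in which microglia had been transiently depleted, and resident cells from mice without depletion. Each state was sampled with fracture and without it. The tables held 4 repopulated fracture, 4 resident fracture, 3 repopulated no-fracture and 4 resident no-fracture libraries from females, and 7, 5, 2 and 3 libraries of the same groups from males. All 32 samples carry 1 genotype label, Cx3Cr1-Cre;Rosa26-iDTR, in which a Cre driven by the fractalkine receptor promoter of microglia and other mononuclear phagocytes switches on a receptor for diphtheria toxin. Tamoxifen and then diphtheria toxin were given for the depletion. The sample descriptions abbreviate the mice without depletion as wild type and the depleted males as iDTR. The genotype of the mice without depletion is therefore not settled by the labels. What the mice without depletion were injected with, and the age of the animals, is not given in the sources used here. Repopulation, the depletion treatment and any difference in genotype therefore cannot be told apart in these comparisons. Nothing in the labels says that each library was 1 animal, so p-values measure the spread between these libraries. Female and male libraries were made with different kits and were tested apart.

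Library totals were 16438827 to 18654165 counts in females and 5722993 to 33697535 in males. The male repopulated libraries held 9644000 to 14914799 counts, and 4 of the 8 male resident libraries held 24537320 to 33697535. The 8 microglial markers, among them P2ry12 and Tmem119, all had rows and summed to 39500 to 48700 CPM in females and 45400 to 59200 CPM in males. In males without fracture they summed to 47100 to 47900 CPM in repopulated and 53800 to 56500 CPM in resident libraries. The other pairs of repopulated and resident groups overlapped in this sum. The T and NK cell list had no row in either table. In bulk RNA, fewer cells of a type and less RNA per cell cannot be told apart.

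Ribosomal proteins are made in matched amounts, 1 of each for every new ribosome. Their messages begin with a cytosine followed by a run of pyrimidines, the 5′ terminal oligopyrimidine tract, which lets growth signals through the mTOR kinase and LARP1 set their translation. They are short, abundant and stable messages, and their share of a cell's RNA is widely used as a sign of its investment in growth.

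**Figure D1:**
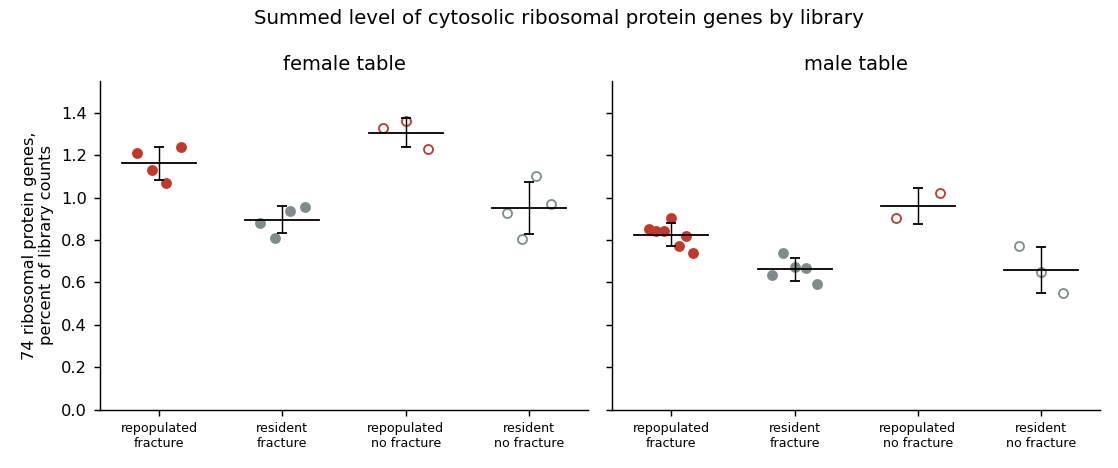
Summed counts of the 74 ribosomal protein genes as percent of each library's total (y axis), one point per library, in repopulated (red) and resident (grey) microglia with fracture (filled) and without (open). Lines and bars are means and SD. In each pair the repopulated libraries lie above the resident ones, from 1.23 to 1.36% against 0.803 to 1.1% in females without fracture.

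The start regions of members are shown first, because the pyrimidine tract is what these genes share in sequence. The RefSeq promoter table (GRCm38.p6, 250 bases before to 50 after a gene's start) held 54 of the 74 members. A cytosine followed by at least 7 pyrimidines stood within 50 bases of a start in 47 of these 54 (87.0%), against 31.5% of 9483 other genes of the tables. The letters CTTCCG on either strand were in 70.4% of member promoters against 36.6% of the others. The 8 letters TCTCGCGA, on either strand, were in 11 of 54 (20.4%) against 2.56%. The letters GGGCGG on either strand were in 59.3% of member promoters against 67.9% of the others. These motifs were picked after several had been looked at, so the shares are descriptions. The windows below run from 15 bases before the start to the 15th base of the gene, 5′ to 3′, with the longest run of 5 or more pyrimidines in capitals. They are the 6 members with a usable RefSeq start that changed most on average over the 4 comparisons of repopulated with resident cells, and then the 6 that changed least.
Rpl35, chr2:39005117-39005146, minus strand: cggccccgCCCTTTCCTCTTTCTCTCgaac
Rpl19, chr11:98026909-98026938, plus strand: tgggCTCTCCCCTTCgcagataatgggcgg
Rpl27a, chr7:109519180-109519209, plus strand: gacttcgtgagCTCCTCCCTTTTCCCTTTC
Rpl37a, chr1:72711245-72711274, plus strand: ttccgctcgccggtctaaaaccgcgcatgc
Rps26, chr10:128626492-128626521, minus strand: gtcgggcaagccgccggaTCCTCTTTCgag
Rps27, chr3:90213634-90213663, minus strand: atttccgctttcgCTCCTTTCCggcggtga
Rpl34, chr3:130730323-130730352, minus strand: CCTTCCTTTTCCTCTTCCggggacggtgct
Rpl38, chr11:114668565-114668594, plus strand: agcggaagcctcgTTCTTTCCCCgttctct
Rps3, chr7:99483695-99483724, minus strand: cttgcaagggtcgccgcgctgcgcggcgtc
Rpl18, chr7:45718056-45718085, plus strand: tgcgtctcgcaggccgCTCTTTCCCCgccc
Rpl27, chr11:101442230-101442259, plus strand: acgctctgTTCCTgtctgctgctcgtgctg
Rpl5, chr5:107900513-107900542, plus strand: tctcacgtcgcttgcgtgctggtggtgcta
Runs of 9 or more pyrimidines stood in 5 of the first 6 windows and in 3 of the last 6. Rpl5 and Rpl27, the least changed members, had a run of 5 letters or none in this window of their listed start. No run stood in Rpl37a, among the most changed, or in Rps3, among the least. Rpl34, also among the least changed, had a run of 18. For Rpl19 and Rpl34, which have 2 listed starts, the start with the longest run is shown. Over the 54 members, the median log2 change averaged over the 4 comparisons was 0.50 in the 47 with the longer tract and 0.44 in the 7 without it.

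Taken as a sum, ribosomal protein messages made up a larger share of the RNA of repopulated than of resident microglia in both sexes, with fracture and without. In females without fracture the share was 1.33, 1.36 and 1.23% of counts in the 3 repopulated libraries, against 0.929, 0.803, 1.1 and 0.968% in the 4 resident libraries. The groups did not overlap, and resident replicate 3 was the highest of its group. With fracture, the female repopulated libraries held 1.21, 1.13, 1.07 and 1.24%, against 0.881, 0.812, 0.936 and 0.954% in resident libraries, again without overlap. The 2 male repopulated libraries without fracture held 0.902 and 1.02%, against 0.77, 0.65 and 0.552% in the resident ones. With fracture the 7 male repopulated libraries ran from 0.74 to 0.905% with a median of 0.843%, against 0.634, 0.739, 0.675, 0.667 and 0.593% in resident libraries. There the lowest repopulated and the highest resident library almost touched.

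Group means set these differences side by side. In females the share averaged 1.31 ± 0.0681% in repopulated cells without fracture (SD, n = 3), against 0.95 ± 0.122% in resident cells (n = 4), a ratio of 1.38. With fracture it averaged 1.16 ± 0.0772% in repopulated and 0.896 ± 0.0639% in resident cells (n = 4 each), a ratio of 1.29. In males the means were 0.961 ± 0.0834% in repopulated (n = 2) and 0.657 ± 0.109% in resident cells (n = 3) without fracture, a ratio of 1.46. They were 0.825 ± 0.0547% in repopulated (n = 7) and 0.662 ± 0.054% in resident cells (n = 5) with fracture, a ratio of 1.25. No test was made on these sums, since the genes were chosen with earlier results of these data known.

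Both subunits were higher in repopulated cells by similar ratios. In females without fracture the small subunit genes summed to 5680 ± 303 CPM in repopulated (n = 3) and 3880 ± 608 CPM in resident cells (n = 4), and the large subunit genes to 7860 ± 435 and 5380 ± 728 CPM in the same groups, a ratio of 1.46 for both. In females with fracture the ratios were 1.38 for the small and 1.39 for the large subunit, in males without fracture 1.56 for both, and in males with fracture 1.25 and 1.31. The large subunit sum was 1.35 to 1.44 times the small subunit sum over the male resident libraries and 1.39 to 1.48 times over the male repopulated ones.

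Gene by gene, each comparison came from a fit to the whole table by edgeR (quasi-likelihood test, p-values adjusted by Benjamini and Hochberg's method over all genes tested), and a gene was called at an adjusted p below 0.05. In females without fracture 54 of the 74 members were higher in repopulated than in resident microglia and 0 were lower, where 1.56% of all 13377 genes were called higher and 0.964% lower. All 74 log2 changes were positive, with a median of 0.53, where the median over all genes was -0.02. In 70 members each repopulated library lay above each resident library, as it did for 6.87% of all genes. With fracture 38 members were called higher and 0 lower, against 1.27% and 1.08% of all genes. All 74 changes were positive with a median of 0.47 against 0 over all genes, and 67 members did not overlap, against 6.26% of all genes.

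In males without fracture 38 members were called higher and 0 lower, against 4.7% and 2.72% of all 11999 genes. All 74 changes were positive with a median of 0.60, where that of all genes was -0.03. The groups did not overlap in 57 members, against 17% of all genes, a high share because only 2 and 3 libraries were compared. With fracture 26 members were higher and 0 lower, against 3.03% and 1.88% of all genes. Of the 74 changes 72 were positive, with a median of 0.33 against 0 over all genes, and 19 members did not overlap, against 2% of all genes.

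**Figure D2:**
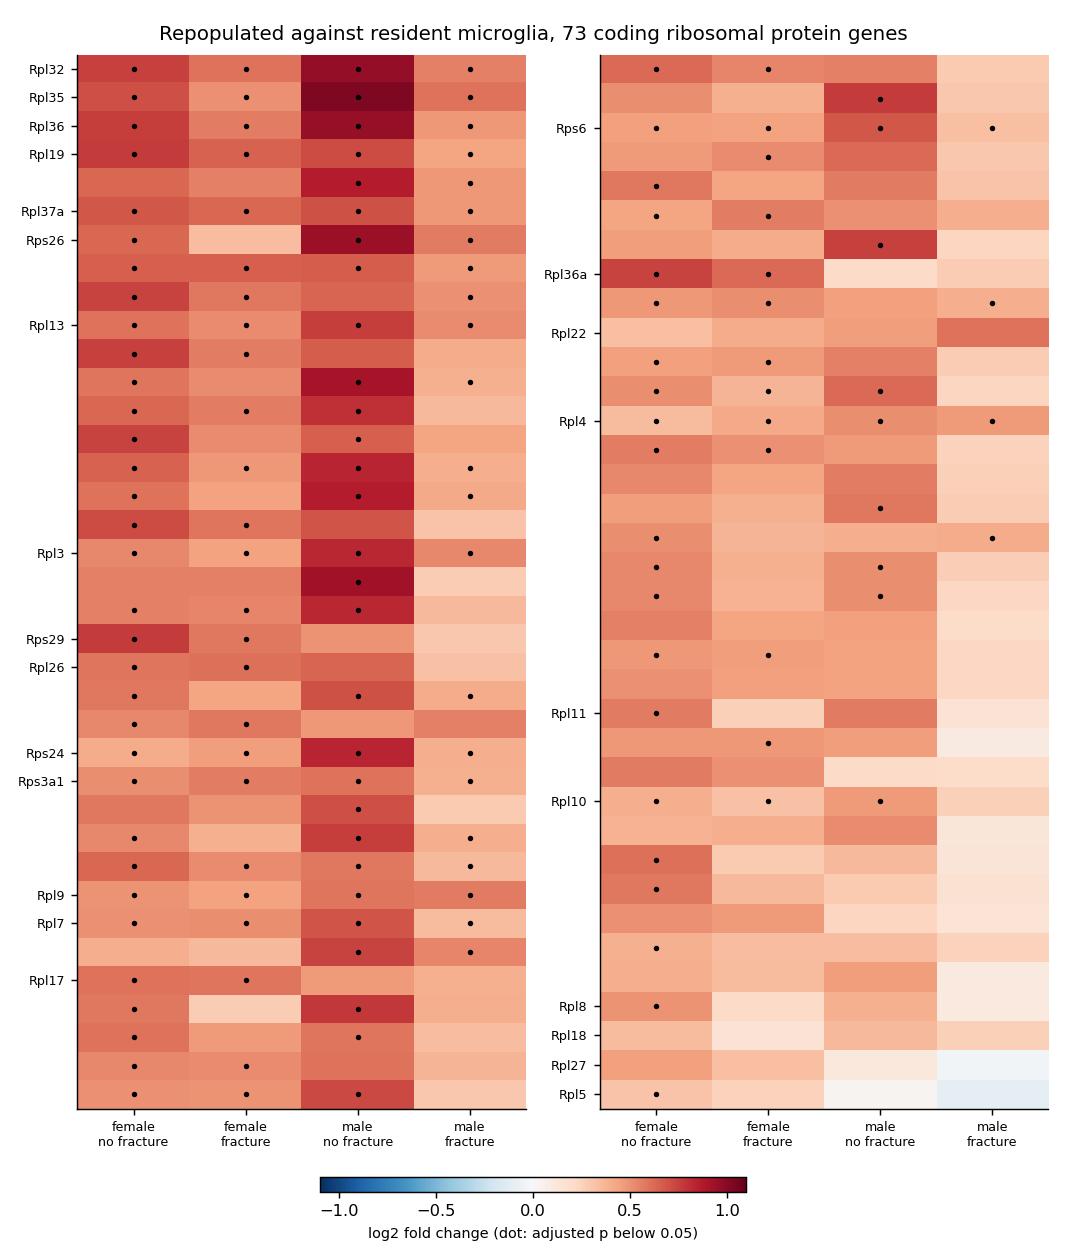
Log2 fold change of repopulated against resident microglia (colour) for the 73 coding members (rows, ordered by their mean over the 4 columns) in each sex with and without fracture; a black dot marks an adjusted p below 0.05, and the names of some members are written beside their rows. Nearly the whole field is red, and the lowest rows, Rpl27 and Rpl5, are near white in males.

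Counts of calls depended on single libraries more than the changes did. Among females without fracture the count fell to 11 without repopulated replicate 1, to 16 without repopulated replicate 2, and to 35, 34 and 31 without resident replicates 1, 2 and 4. With fracture, leaving out the resident replicates 1, 2, 3 and 4 in turn gave 12, 13, 21 and 22, and leaving out repopulated replicates 1 and 4 gave 15 and 18. In males it was 15 without repopulated replicate 2, which leaves 1 library in that group, assumed to vary like the other groups, and 23 without resident replicate 3 (no fracture), and 13 without resident replicate 5 (fracture). When only the 7 female no-fracture libraries were fitted, no gene of the table was called, with 72 members at an unadjusted p under 0.05. Males with fracture have sample numbers from V64 to V69 and from V99 to V110. Within the lower range (3 libraries against 3) the member median was 0.29 with 3 members called, within the upper range (4 against 2) it was 0.44 with 0 called and 52 at an unadjusted p under 0.05, and with the range as a term it was 0.36 with 32 called.

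Members called higher in all 4 comparisons numbered 16 of 74, where 50 of the 11672 genes with rows in both tables (0.428%), these members included, were called higher in all 4. Among the 16 were Rpl3, Rpl4, Rpl7, Rpl9, Rpl13, Rpl19, Rpl32, Rpl35, Rpl36, Rpl37a, Rps3a1, Rps6, Rps24 and Rps25, and 11 members were called in none. These calls rest on the fit to all libraries of a table. In females 9 members without fracture and 12 with it stayed called whichever 1 library was left out, as did 13 in males with fracture. Only Rpl13 and Rpl19 stayed called in all 4 comparisons in this way. Most of the 16 therefore lost at least 1 call without 1 library.

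Rpl19 (chr11:98026710-98030492, plus strand, GRCm38) encodes a large subunit protein at the base of the ribosome, near the exit of the tunnel through which the new chain leaves. It had 244, 235 and 215 CPM in female repopulated libraries without fracture, against 126, 112, 172 and 131 CPM in resident ones. With fracture it had 204, 194, 173 and 180 CPM in repopulated libraries, against 113, 107, 130 and 130 CPM in resident ones. All female repopulated libraries lay above all resident ones, and the change was 0.77 ± 0.12 (log2, SE; adjusted p = 0.00782 by edgeR) without fracture and 0.65 ± 0.11 (adjusted p = 0.0114 by edgeR) with it. In males it had 161 and 174 CPM in repopulated against 114, 104 and 87.7 CPM in resident libraries without fracture. With fracture it had 128 to 161 CPM, median 135, in the 7 repopulated libraries, against 90.6 to 116 CPM, median 107, in the 5 resident ones. The male groups did not overlap either, with changes of 0.72 ± 0.13 (adjusted p = 0.00121 by edgeR) and 0.43 ± 0.08 (adjusted p = 0.00392 by edgeR).

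Rpl13 (chr8:123102350-123105244, plus strand) encodes a large subunit protein that is among the most abundant of the set in both tables. It averaged 419 ± 26.7 CPM in repopulated and 276 ± 39.3 CPM in resident female cells without fracture, and 383 ± 28.4 and 268 ± 18.2 CPM in the same groups with fracture. In males it averaged 559 ± 68.6 CPM in repopulated and 331 ± 49.2 CPM in resident cells without fracture, and 465 ± 50.5 and 325 ± 17.3 CPM with fracture. The log2 changes were 0.60, 0.52, 0.76 and 0.52 in that order, each with an SE of 0.08 to 0.13.

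Rpl35 (chr2:39001580-39005624, minus strand) encodes another protein at the tunnel exit, where the signal recognition particle docks. In females without fracture it had 114, 123 and 108 CPM in repopulated libraries, against 69.9, 58.3, 83.4 and 70 CPM in resident ones. In males without fracture it had 170 and 198 CPM in repopulated against 104, 89.5 and 76.9 CPM in resident libraries, and with fracture 125 to 170 CPM, median 145, in repopulated libraries, against 79.8 to 106 CPM in the 5 resident ones. No male repopulated library reached down to a resident one. Its change in males without fracture, 1.03 ± 0.15 (adjusted p = 0.000146 by edgeR), was the largest of the coding members there. It was 0.60 ± 0.1 in males with fracture (adjusted p = 0.000782 by edgeR) and 0.71 ± 0.11 in females without fracture (adjusted p = 0.00782 by edgeR).

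Rpl3 (chr15:80077791-80091868, minus strand) encodes a protein of the large subunit whose loop reaches toward the peptidyl transferase centre. In females it averaged 540 ± 47.9 CPM in repopulated and 375 ± 38.3 CPM in resident cells without fracture, a change of 0.53 ± 0.09 (adjusted p = 0.0104 by edgeR). In males with fracture it averaged 226 ± 19 CPM in repopulated and 157 ± 12.9 CPM in resident cells, a change of 0.53 ± 0.08 (adjusted p = 0.000429 by edgeR), the smallest adjusted p of any member there.

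Small subunit members moved by similar amounts. Rps24, which is mutated in some patients with Diamond-Blackfan anaemia, averaged 136 ± 3.18 CPM in repopulated and 98.3 ± 6.31 CPM in resident female cells with fracture, a change of 0.46 ± 0.08 (adjusted p = 0.0124 by edgeR). In males without fracture it had 89.3 and 95.9 CPM in repopulated against 61.3, 48.9 and 44.6 CPM in resident libraries, a change of 0.84 ± 0.15 (adjusted p = 0.00112 by edgeR). That male value is a sum over transcripts, and its single most abundant transcript model went the other way, at -0.43. Rps26, whose protein contacts the message near the exit channel, had 58.2 and 69.5 CPM in male repopulated against 37.8, 30.4 and 31.6 CPM in resident libraries without fracture, a change of 0.94 ± 0.17 (adjusted p = 0.00116 by edgeR). Rps29, a small zinc-binding protein of the small subunit, averaged 220 ± 14 CPM in repopulated and 129 ± 24.2 CPM in resident female cells without fracture, a change of 0.77 ± 0.14 (adjusted p = 0.0111 by edgeR). Rps6, the classical substrate of the S6 kinases, was called in all 4 comparisons.

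Several more members stood among the strongest calls of one comparison or another. Rpl7, of the large subunit, averaged 158 ± 6.01 CPM in repopulated and 97.7 ± 1.38 CPM in resident male cells without fracture (0.69 ± 0.1, adjusted p = 0.000249 by edgeR). Rps18, at the head of the small subunit, averaged 162 ± 35.2 and 86.1 ± 20.7 CPM in the same groups (0.91 ± 0.16, adjusted p = 0.000805 by edgeR). Rpl9 averaged 96.4 ± 7.17 CPM in repopulated and 65 ± 3.73 CPM in resident male cells with fracture, and Rpl10a 97.1 ± 6.09 and 66.9 ± 4.2 CPM, changes of 0.57 and 0.54. Large and small subunit members thus stood side by side among the called genes. In females without fracture Rpl7a and Rpl15 changed by 0.58 and 0.51, each with an SE of 0.09. In females with fracture Rpl26, Rpl17, Rpl30, Rps3a1 and Rps4x changed by 0.61, 0.59, 0.56, 0.56 and 0.51. In males with fracture, by contrast, Rps10 had 50 ± 6.59 CPM in repopulated and 46.7 ± 4.25 CPM in resident cells and was not called.

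**Figure D3:**
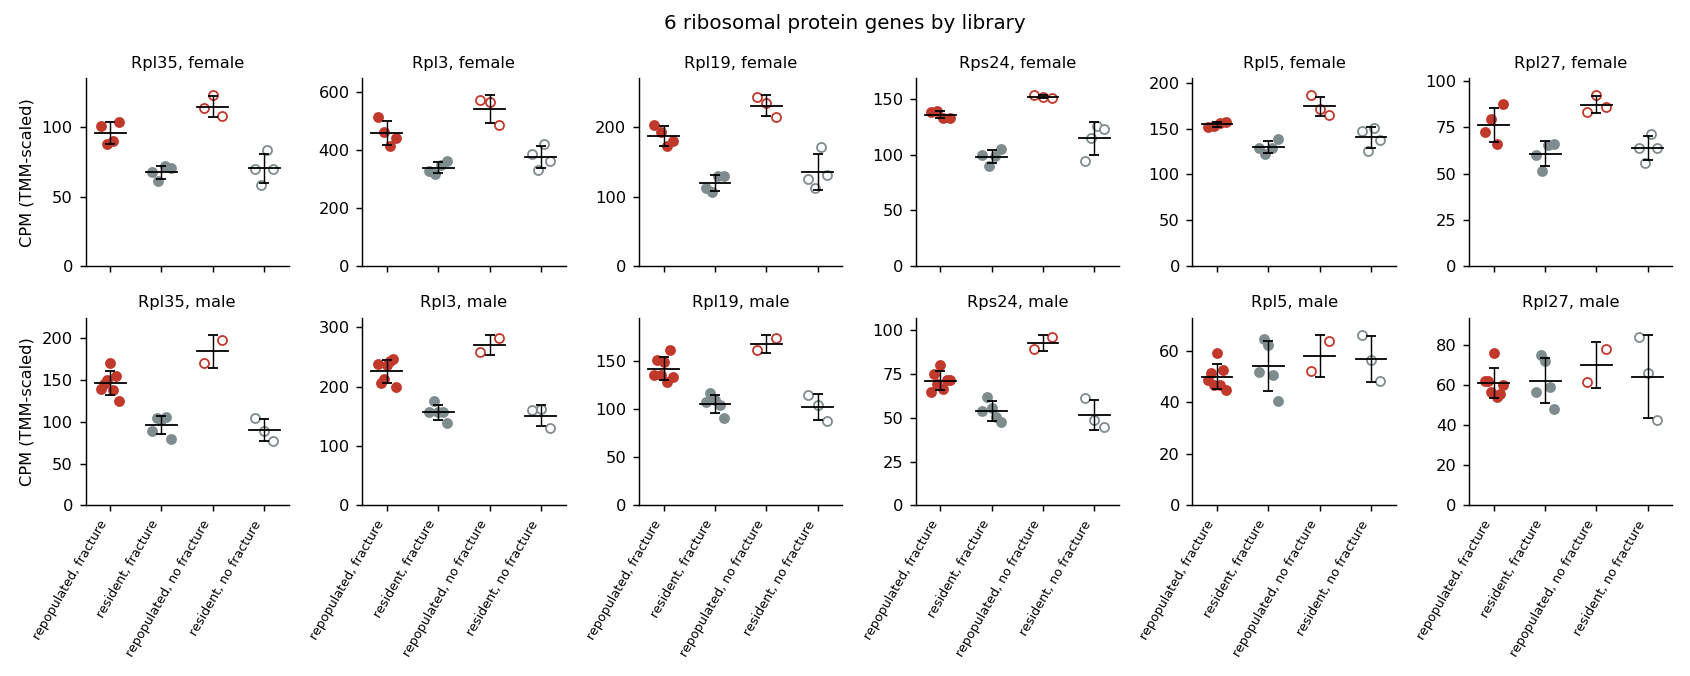
CPM on TMM-scaled totals (y axes from 0) of 6 members by library in females (top) and males (bottom), repopulated in red and resident in grey, fracture filled and no fracture open; lines and bars are means and SD. Rpl35, Rpl3 and Rpl19 separate the 2 cell states within each fracture condition in both sexes, while Rpl5 and Rpl27 overlap in males.

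At the low end, Rpl5 (chr5:107900502-107909005, plus strand) encodes a protein that carries the 5S ribosomal RNA into the large subunit and, free of it, binds Mdm2. In females without fracture it had 186, 171 and 165 CPM in repopulated libraries, against 147, 126, 151 and 137 CPM in resident ones, a change of 0.31 ± 0.08 (adjusted p = 0.0465 by edgeR). With fracture the female change was 0.25 ± 0.07 and missed the threshold (adjusted p = 0.0777 by edgeR), although the groups did not overlap. In males Rpl5 had 52.2 and 63.6 CPM in repopulated against 66.1, 56.3 and 48.2 CPM in resident libraries without fracture. With fracture it ran from 44.8 to 59 CPM, median 48.6, in repopulated libraries, against 51.9, 64.4, 62.1, 50.6 and 40.4 CPM in resident ones. The male groups overlapped, with changes of 0.03 ± 0.19 and -0.11 ± 0.12. Its partner in the same particle, Rpl11, averaged 93.6 ± 7.98 CPM in repopulated and 78.2 ± 8.22 CPM in resident female cells with fracture (change 0.26 ± 0.1, adjusted p = 0.226 by edgeR).

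Rpl27 (chr11:101442298-101445529, plus strand), of the large subunit, was not called in any comparison. Its changes were 0.45 and 0.33 in females without and with fracture, and 0.12 ± 0.23 and -0.03 ± 0.15 in males. The male resident values without fracture were 84.3, 66.2 and 42.8 CPM, wider apart than the 2 repopulated values of 61.9 and 78.2 CPM. Rpl18 had 117 ± 11.5 CPM in repopulated and 105 ± 7.83 CPM in resident female cells with fracture, the smallest change of a coding member there (0.16 ± 0.1, adjusted p = 0.575 by edgeR). Rpl22, a large subunit protein not needed for translation in general, was at 41.8 ± 2.07 CPM in repopulated and 33.2 ± 3.4 CPM in resident female cells without fracture (0.33 ± 0.11, adjusted p = 0.147 by edgeR). Rps3a2, the annotated pseudogene, was at 1.52 ± 0.193 and 1.29 ± 0.271 CPM in the same groups and was called nowhere.

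The counts by place in the ribosome stand beside those of all members, 54 and 38 of 74 in females without and with fracture and 38 and 26 of 74 in males, and beside 1.56, 1.27, 4.7 and 3.03% of all genes. No difference between these subsets and the other members was tested. The 9 proteins around the exit tunnel (Rpl4, Rpl17, Rpl19, Rpl22, Rpl23a, Rpl26, Rpl31, Rpl35 and Rpl39) were called higher in 8 and 7 of 9 in females without and with fracture and in 4 and 3 of 9 in males. The 7 proteins along the message channel and decoding site (Rps2, Rps3, Rps9, Rps15, Rps23, Rps26 and Rps28) were called in 6, 2, 3 and 2 of 7 in the same order. The 4 X-linked members, Rps4x, Rpl10, Rpl36a and Rpl39, were all called in both female comparisons, and 1 of 4 in each male one. Rpl36a, for example, had 48.5, 47 and 42.8 CPM in female repopulated against 25.6, 19.8, 34.8 and 30.5 CPM in resident libraries without fracture. In males it had 21 and 32.9 CPM in repopulated against 30.9, 23.2 and 15.8 CPM in resident libraries, which overlap. Whether the sexes differ was not tested, since their libraries were made with different kits.

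The members changed by unequal amounts, and their order was partly shared between the sexes, whose libraries are separate. Across the 73 coding members the log2 changes of females and males correlated at 0.41 without fracture and 0.45 with it (Pearson's r across genes, which are not independent replicates). Rpl32, Rpl35, Rpl36 and Rpl19 had the highest mean change over the 4 comparisons, 0.72, 0.71, 0.69 and 0.64, and Rpl18, Rpl27 and Rpl5 the lowest, 0.28, 0.22 and 0.12. In females the change was larger for members with shorter messages, with a Spearman correlation of -0.40 and -0.41 with transcript length over 73 members, where it was 0 and -0.08 in males. The same relation over all other genes was -0.07 and -0.01 in females, and 0.07 and -0.04 in males. With mean CPM in place of length, the correlation over the 73 members was 0.35 and 0.3 in males, and -0.04 and 0.05 in females. Short genes other than members, at least as abundant as the lowest coding member, had smaller median changes. The 244 female genes, no longer than 858 bases, had medians of 0.13 without fracture and 0.04 with it. The 245 male genes, no longer than 847 bases, had 0.04 and 0.01. Of these genes 9, 6, 20 and 15 were called higher and 0, 1, 4 and 2 lower, in the same order. Among all genes 1.56, 1.27, 4.7 and 3.03% were called higher, and 0.964, 1.08, 2.72 and 1.88% lower. The part of message length in the member changes was not tested.

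**Figure D4:**
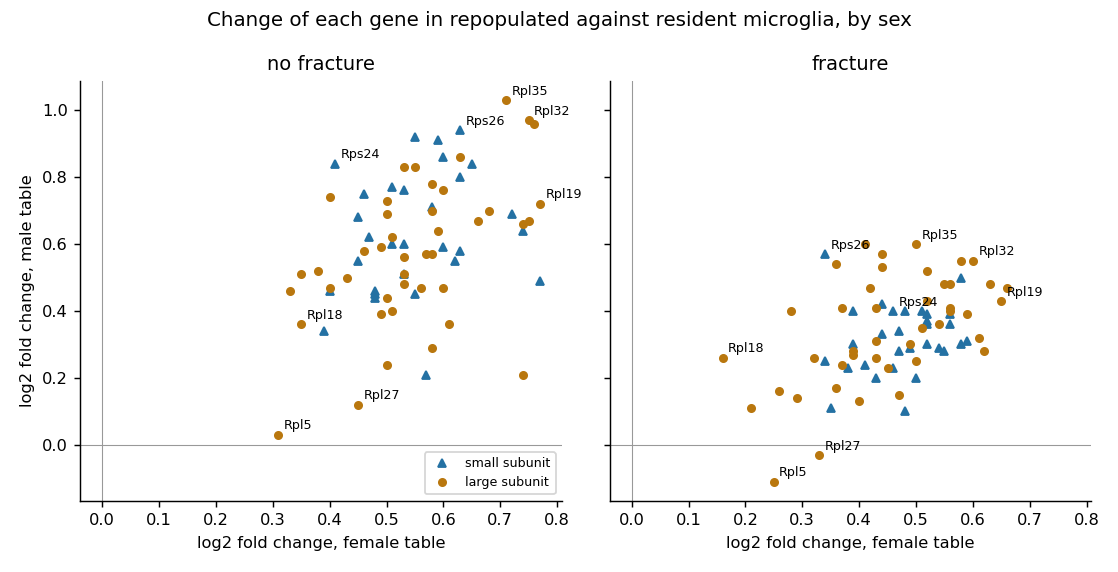
Log2 fold change of repopulated against resident microglia in females (x axis) and males (y axis) without fracture (left) and with it (right), one point per coding member, by subunit. Points lie to the upper right, with Pearson's r of 0.41 and 0.45, and Rpl5 and Rpl27 lie at the lower edge in males.

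Levels between members differed far more than levels between groups. Per kilobase of transcript Rpl10, Rps29 and Rpl13 were among the highest members over the 15 female libraries, at 449 ± 68.8, 426 ± 114 and 420 ± 91.7 CPM per kilobase, which do not differ beyond their spread. Over the 17 male libraries Rpl13 had 524 ± 122 CPM per kilobase. Rpl38 was the lowest coding member in females at 46.5 ± 10.5 and Rpl5 in males at 32 ± 4.77. These levels rest on how reads were divided among transcripts and among near-identical copies, so single members are less certain than their sum.

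Ribosomal genes that the name rule leaves out also had positive changes. They number 7, among them Rplp0 and Rplp1 of the stalk, Rpsa, Fau and Rack1, and all 7 changes were positive in each of the 4 comparisons. Without fracture and with it, 3 and 4 of 7 were called higher in females, and 1 and 0 in males, against 1.56, 1.27, 4.7 and 3.03% of all genes. Fau averaged 142 ± 16.6 CPM in repopulated and 95.3 ± 11.4 CPM in resident female cells with fracture (0.58 ± 0.12, adjusted p = 0.0189 by edgeR).

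Among other translation genes, the mitochondrial ribosomal and assembly lists held almost no calls, and the initiation list held calls in males alone. Of 79 mitochondrial ribosomal proteins 0 were called in either female comparison, with 5 and 3 at an unadjusted p under 0.05 in the edgeR test. In males 1 was called lower without fracture and 0 with it. Their median changes were -0.06, -0.04, -0.08 and 0.01, and their summed level without fracture was 2110 ± 17.3 CPM in female repopulated (n = 3) and 2160 ± 58 CPM in resident cells (n = 4). Of 36 ribosome assembly genes, among them Fbl, Ncl and Npm1, 0 were called in any of the 4, with 5, 4, 1 and 3 at an unadjusted p under 0.05 in the edgeR test and medians of -0.06, -0.04, -0.03 and 0.04. Of 37 initiation factors 0 were called in females and 2 and 4 were higher in males, where 4.7 and 3.03% of all genes were. Among them was Pabpc1, the poly(A)-binding protein, at 163 ± 15.8 CPM in repopulated and 96.1 ± 14.3 CPM in resident male cells without fracture (0.76 ± 0.13, adjusted p = 0.000675 by edgeR).

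Among 11 elongation genes the one called in all 4 comparisons was Eef1a1, which brings aminoacyl-tRNA to the ribosome and whose message also has a pyrimidine tract. It averaged 2220 ± 153 CPM in repopulated and 1560 ± 278 CPM in resident female cells without fracture (0.51 ± 0.1, adjusted p = 0.0173 by edgeR). In males without fracture it averaged 1050 ± 32.4 and 585 ± 61.3 CPM in the same groups (0.84 ± 0.11, adjusted p = 4.86e-05 by edgeR). Of these 11 genes, Eef1a1 alone was called in females without fracture, and Eef1a1 and Tpt1 with it. There 1.56 and 1.27% of all genes were called higher. Eef1g was called higher in males without fracture. Among all genes 4.7 and 3.03% were called higher in males without and with fracture, and 2.72 and 1.88% lower. Eef2, the translocase, rose in males without fracture, at 320 ± 4.15 CPM in repopulated and 216 ± 14.6 CPM in resident cells (0.57 ± 0.12, adjusted p = 0.00489 by edgeR). Eef2 was also called higher in males with fracture (0.31 ± 0.08, adjusted p = 0.028 by edgeR). Eef2k, the kinase that inhibits it, fell in males, to 72.3 ± 5.35 CPM in repopulated against 142 ± 15.1 CPM in resident cells without fracture (-0.97 ± 0.14, adjusted p = 0.000146 by edgeR). With fracture it was at 108 ± 9.75 CPM in repopulated and 145 ± 14 CPM in resident male cells (-0.42 ± 0.08, adjusted p = 0.00444 by edgeR). Of the mTOR and LARP1 genes, 25 for females and 24 for males, 0 were called in females, with 7 and 0 at an unadjusted p under 0.05 in the edgeR test. In males without fracture Larp1 was higher, at 125 ± 22.6 CPM in repopulated and 76 ± 9.5 CPM in resident cells (0.71 ± 0.19, adjusted p = 0.0233 by edgeR), and Rps6ka1 lower, at 723 ± 16.1 and 900 ± 29.3 CPM (-0.32 ± 0.09, adjusted p = 0.0294 by edgeR). These were the only calls of the 24 genes there, where 4.7% of all genes were called higher and 2.72% lower. No change of the list as a whole is drawn from them. The list also held Pdk1, which was called higher in males with fracture but encodes pyruvate dehydrogenase kinase 1, a mitochondrial enzyme, and so is no call on the mTOR pathway.

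**Figure D5:**
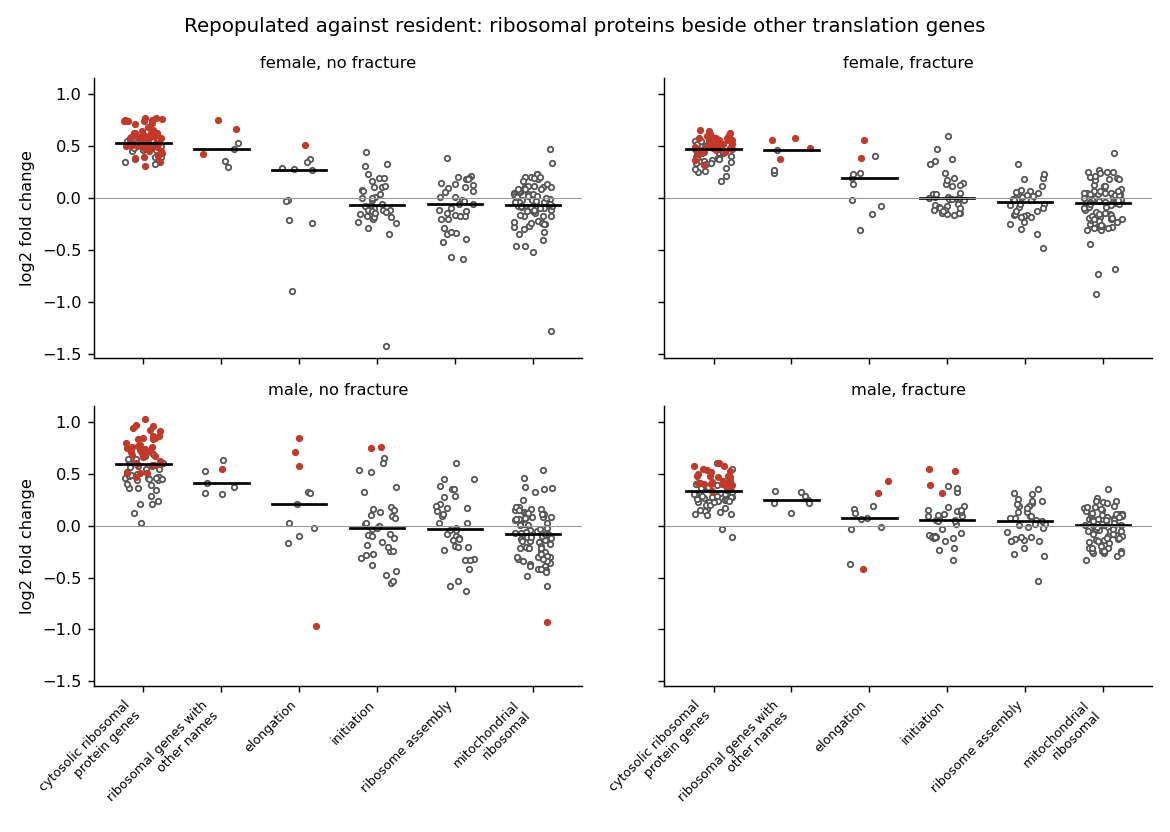
Log2 fold change of repopulated against resident microglia (y axis) for coding members, 7 ribosomal genes with other names, elongation, initiation, ribosome assembly and mitochondrial ribosomal genes in each sex with and without fracture. Red points have an adjusted p below 0.05 and bars are medians. Members have medians of 0.53, 0.47, 0.59 and 0.33, while assembly and mitochondrial ribosomal genes centre within 0.08 of 0.

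The copies that the rule sets aside held few counts. The 32 female rows named as pseudogenes summed to 70.4 ± 1.24 CPM in repopulated and 58.1 ± 6.18 CPM in resident cells without fracture, and 26 and 27 of 32 had positive changes in the 2 female comparisons with none called. Reads of a member and its pseudogenes are hard to tell apart. Of 26 male pseudogene rows Rps23-ps1 was called, at 32.3 ± 0.357 CPM in repopulated and 15.6 ± 4.13 CPM in resident cells without fracture (1.05 ± 0.25, adjusted p = 0.0107 by edgeR). The 5 like copies, which encode proteins related to members, had 0 calls in all 4 comparisons, with 2, 3, 1 and 2 at an unadjusted p under 0.05 in the edgeR test, and summed to 257 CPM in repopulated and 261 CPM in resident female cells without fracture.

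Within members, protein-coding transcripts held most counts. Transcripts annotated as retaining an intron made up 5.73 ± 0.342% of member counts in female repopulated and 7.03 ± 0.639% in resident cells without fracture, and 6.17 ± 0.193% and 6.83 ± 0.495% in the same groups with fracture. In males the share was 4.05 ± 0.0778% in repopulated (n = 2) and 4.21 ± 0.503% in resident cells (n = 3) without fracture. Fitted as single transcripts, the 147 coding transcripts of members had a median change of 0.49 and the 105 intron-retaining ones of 0.24 in females without fracture. In males the medians were 0.55 over 145 coding and 0.48 over 59 intron-retaining transcripts.

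For fracture itself the test made no call. No member was called in either direction in the 4 comparisons of fracture with no fracture or in the 2 tests of whether the change between cell states depended on fracture. Among all genes 0% were called in females, and in males 0.00833% were called higher (1 gene) and 0% lower, in each of the 3 tests. Unadjusted p-values under 0.05 were found for 1, 14 and 1 members in females (fracture against no fracture in resident cells, the same in repopulated cells, and the interaction) and for 0, 28 and 15 members in males. DESeq2 called 2 members lower with fracture in male repopulated cells and 0 in the other 5 tests.

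The member values with fracture were nonetheless on the lower side in repopulated cells. In repopulated females the median change with fracture was -0.18, with 73 of 74 negative, where it was -0.01 over all genes, and in males it was -0.27 with 74 of 74 negative, where it was 0.01 over all genes. Members of a library vary together, so these signs are not separate observations. The summed shares overlapped in repopulated females, at 1.07 to 1.24% with fracture and 1.23 to 1.36% without. They also overlapped in repopulated males, at 0.74 to 0.905% with fracture and 0.902 to 1.02% without. In resident cells the medians were -0.10 in females and 0.01 in males. Among the lowest members of repopulated females were Rps26, at 54.7 ± 7.16 CPM with fracture and 74.1 ± 8.85 CPM without (-0.44 ± 0.15, adjusted p = 0.37 by edgeR), Rpl28, Rpl36 and Rps2. In repopulated males they included Rps20, at 62.7 ± 6.25 CPM with fracture and 96.5 ± 7.68 CPM without (-0.62 ± 0.16, adjusted p = 0.285 by edgeR), Rps28 and Rps25. Only 2 male repopulated libraries without fracture stand behind the second set, both with V numbers under 80. With male libraries of V64 to V79 alone the median was -0.27 and 0 members were called, with 13 at an unadjusted p under 0.05 in the edgeR test.

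Markers of other cells differed between the same groups. Of 12 infiltrating macrophage and monocyte markers 9 had rows, and their sum was 1240 to 2270 CPM in female repopulated and 550 to 974 CPM in resident libraries without fracture, and 1610 to 1960 and 639 to 697 CPM in the same groups with fracture. In males it was 947 to 1960 CPM in repopulated and 352 to 438 CPM in resident libraries without fracture, and 790 to 1880 and 451 to 1000 CPM with fracture. Lyz2, which activated microglia also express, held most of it in females without fracture, at 1490 ± 442 CPM in repopulated and 646 ± 171 CPM in resident cells. Of these 9 markers 4, 4, 2 and 1 were called higher in the 4 comparisons, against 1.56, 1.27, 4.7 and 3.03% of all genes. Of 7 B cell markers 3 had rows, and they summed to 389 to 461 CPM in female repopulated and 545 to 600.0 CPM in resident libraries with fracture. Of these, 3, 2, 1 and 2 of the 3 were called lower in the 4 comparisons, against 0.964, 1.08, 2.72 and 1.88% of all genes. Of 6 border macrophage markers 2 had rows in females, and they summed to 2.42 to 11.2 CPM in repopulated and 0.934 to 1.82 CPM in resident libraries without fracture, and to 4.48 to 21.1 and 0.732 to 3.01 CPM with fracture, ratios of means of 5.37 and 6.45. In males 3 had rows, at 3.33 to 22.2 CPM in repopulated and 3.91 to 9.84 CPM in resident libraries without fracture, and 6.63 to 45.4 and 2.9 to 8.49 CPM with fracture, and none was called in either sex, with 1, 1, 0 and 2 at an unadjusted p under 0.05 in the 4 edgeR comparisons. These levels are low beside the microglial sum.

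Single markers of further cell types were called as well. Csf3r, the 1 of 6 neutrophil markers with a row, was at 1190 ± 59.7 CPM in repopulated and 919 ± 54.5 CPM in resident female cells with fracture, and was also called higher in both male comparisons. Trf, of the 6 oligodendrocyte markers with rows, was at 2720 ± 95.5 CPM in repopulated and 2210 ± 30.6 CPM in the same female groups, and was also called higher in females without fracture and in males with it. Both genes were present in all groups. Pecam1, an endothelial marker, was at 4.43 ± 1.97 CPM in repopulated and 22.1 ± 2.46 CPM in resident female cells with fracture, and was also called lower in both sexes without fracture. Kdr, another endothelial marker, was higher in males without fracture, at 27.7 ± 11 CPM in repopulated and 4.8 ± 3.85 CPM in resident cells. Slc1a3, an astrocyte marker, was lower in males with fracture, at 96.5 ± 15 CPM in repopulated and 130 ± 13.5 CPM in resident cells. P2ry12, a marker of homeostatic microglia, was at 3320 ± 174 CPM in repopulated and 7240 ± 400 CPM in resident male cells without fracture. It was also called lower in females without fracture and in males with it. Of the other microglial markers, Cx3cr1 was called lower in females with fracture and in males without it. Tmem119 was called lower in males without fracture and Sall1 in females without fracture. The part of these differences, and of library depth in males, in the ribosomal protein result was not tested. With the deepest male fracture libraries (resident replicates 2 and 3) left out, an alternative chosen after seeing the data, the median change was 0.45 and 32 members were called higher.

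By rank over libraries, the non-members whose level most resembled the summed member level included Fmn1, Fau, Gm10076 and Rplp2 in females (Spearman's rho 0.96 to 0.94 over 15 libraries) and were Gm2000, Gm7536, Fau, Cd9 and Ftl1 in males (0.97 to 0.93 over 17). The most opposed were Ywhaz, Calm2, Phactr2, Rtn1 and F11r in females (-0.94 to -0.92) and Gpr165, Elmo1, Tnfrsf21, Ublcp1 and Wiz in males (-0.89 to -0.86). The libraries of a table share its groups, so these ranks largely restate the difference between cell states.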

How the data were processed

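RNA-seq of sorted mouse microglia was deposited as 2 tables, females and males apart, of expected counts per transcript. Per the submitters' processing notes the tools include RSEM 1.3.1, STAR 2.7.6a, cutadapt 3.4 and Trim Galore 0.6.7, with the build GRCm38 and no roles stated; a strand setting is not given in the sources used here. Each deposited row has at least 10 counts in 8 or more female or 9 or more male libraries. The deposited column of deviations, a signal value by the authors, equals the mean absolute deviation over libraries and was not used further.

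The authors deposited these estimated counts as whole numbers, and they were summed by gene, giving 13377 female and 11999 male genes. edgeR 4.0.16 (R 4.3.3, TMM scaling, filterByExpr, robust quasi-likelihood) was fitted to the 4 groups of a table together, with Benjamini-Hochberg adjustment over all genes. CPM are on TMM-scaled totals, and SE is the log2 change over the root of F. The script was checked on simulated data. DESeq2 1.42.0 and other scalings, filters, sample sets and rows were tried. Gene names came from the tables, and lengths and types from GENCODE M21, which held 13280 and 11906 of the genes. Members and lists were chosen with earlier results of these data known. Named members are, per comparison, up to 12 called by smallest p and the 4 highest and 4 lowest changes at a mean of at least 10 CPM; in the fracture comparisons the lowest are named for repopulated cells alone, and in the interaction none. Some genes that this rule or the lists select are not reported here.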

Additional observations from a re-analysis of the deposited data

Results flagged for a closer look

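Rpl27 had 1 library far from the others: among the 7 male repopulated libraries with fracture the highest lay at 76.2 CPM, where the others ran from 54 to 62.2 CPM. Chance marks about 1 in 20 groups tested this way.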

How the results depend on the processing

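The median change of members in repopulated against resident cells was positive under every alternative run, from 0.45 to 0.63 and 0.38 to 0.51 in females without and with fracture, and from 0.47 to 0.81 and 0.29 to 0.45 in males; the 0.81 was without resident replicate 1. Counts of members called moved further: with 1 library left out they ranged from 11 to 69 and 12 to 55 in females and from 15 to 57 and 13 to 31 in males. With only the groups compared, counts were 0 in females and 23 in males without fracture. With a replicate block the male fracture count was 16; same-numbered libraries deviated together at a median correlation of -0.0294 in females and -0.00351 in males, with 5 of 15 female and 2 of 15 male libraries best with their own number, so the numbers were not taken as pairs, and the block changed no other count by over 1.5 times. Males with fracture gave 3 within V64 to V69, 0 within V99 to V110 and 2 within V64 to V79 (added after seeing the data). DESeq2 called 2 members lower with fracture in male repopulated cells. Library totals as the only scaling moved the median of all genes to -0.11 and -0.09 in females and -0.12 and -0.05 in males, and members to 0.45, 0.38, 0.51 and 0.29.

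Changes of opposite sign arose in males, for members with small changes and for Rps24, whose main change without fracture was 0.84. Without fracture Rpl5 was -0.06 with library totals, -0.01 with the replicate block and -0.12 to 0.16 with 1 library left out; Rpl27 ranged from -0.09 to 0.38, Rpl36a from -0.15 to 0.50 and Rps21 from -0.02 to 0.49. Rps24 was -0.43 with its top transcript alone; the cause was not tested. With fracture Rpl5 was 0.16 within V99 to V110 and 0.07 without resident replicates 2 and 3, and Rpl27 0.20 and 0.16, and -0.10 to 0.05 with 1 library left out. With the top transcript per gene the summed share, by construction smaller, was 0.949 and 0.722% in female repopulated and resident cells with fracture, 1.07 and 0.766% without, and 0.661, 0.529, 0.772 and 0.528% in the same order in males.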
